A study of Mus musculus with 17 samples.

Results

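The gene Cd4 lies on mouse chromosome 6 and encodes the co-receptor by which helper T cells recognise MHC class II. Its chromatin was described here over the mm9 window chr6:124800001-124850000, a stretch of 50 kb chosen to hold the gene body, the silencer and the promoter. Every enriched interval (island) of the 12 histone island lists and every peak of the Tcf1 list that shared at least 1 bp with the window was taken. That gave 24 intervals of 354506 in all: 24 histone islands and 0 Tcf1 peaks.

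Histone marks (4) were mapped by chromatin immunoprecipitation and sequencing in sorted mature thymocytes. Wild-type CD8 cells (WT CD8) and CD8 cells lacking Tcf1 and Lef1 (DKO CD8, genotype Tcf1-/-Lef1-/-) were sorted as TCRbeta-high, CD69-negative, CD24-negative and CD8+. Wild-type CD4 cells (WT CD4) carry a CD4 title and source name, although their phenotype label repeats the CD8 sort, and the title was followed. Tcf1 binding was mapped in splenic TCRbeta-high CD8+ cells of wild-type mice, with splenic Tcf1-/- cells as the control library. Both factors were deleted by CD4-Cre, a Cre recombinase expressed from Cd4 regulatory sequences. Ages, the exact Cre construct and whether the controls carried it were not stated in the labels. Each group had 1 library per mark, so differences could not be tested against replicates: p-values are not given, and all intervals describe counting error alone.

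In the thymus, Cd4 is transcribed in double-positive cells and in the CD4 lineage, and it is turned off in the CD8 lineage through an intronic silencer bound by Runx proteins. Tcf1 and Lef1, both transcription factors of the HMG-box family, act at several steps of T cell development. Of the marks, H3K4me3 is found mostly at promoters in use. The acetyl marks H3K27ac and H3K9ac also occur at active enhancers, and Polycomb proteins deposit H3K27me3 where genes are repressed. In the RefSeq gene order of GRCm38, Cd4 stands between Gpr162, an orphan receptor gene, and Lag3, which encodes an inhibitory receptor of T cells. No mm9 annotation was used here, so no island is assigned to the promoter, an exon or the silencer, and marker genes of the sorted cells were not checked.

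Lists differed in size, from 6516 islands (DKO CD8 H3K9ac) to 56985 (WT CD8 H3K27ac), and in island reads, from 248234 to 4025243. The WT CD8 lists of H3K27ac and H3K27me3 stood apart by their overlap. Of WT CD8 H3K27ac islands, 33.3% overlapped an H3K27me3 island of the same cells. For DKO CD8 the share was 13.6%, and for WT CD4 it was 14.8%. Of H3K27me3 islands at least 5 kb wide, an H3K27ac island overlapped 62.9% (WT CD8), 27.6% (DKO CD8) and 20.8% (WT CD4). The source of this overlap, and whether it lies in either library, was not tested. Ratios to WT CD8 of both marks therefore rest on lists that overlap more than those of the other groups. So do the H3K27me3 cover of WT CD8 and its ratio of H3K27ac over H3K27me3. The comparison of DKO CD8 with WT CD4 uses neither list.

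Most reads of the window fell in a single block about 9 kb long (the map of islands). The largest island of each of the 9 lists with any island in the window covered the stretch chr6:124829801-124838800, a common length of 9.0 kb. Apart from the WT CD8 H3K27me3 island, their starts lay within 400 bp of each other and their ends within 800 bp. The WT CD8 H3K27me3 island ran past the block, to a width of 16.6 kb. The largest islands held between 71.7% (WT CD8 H3K27me3) and 100% (WT CD4 H3K4me3 and DKO CD8 H3K9ac) of the reads of all islands of the window.

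**Figure D1:**
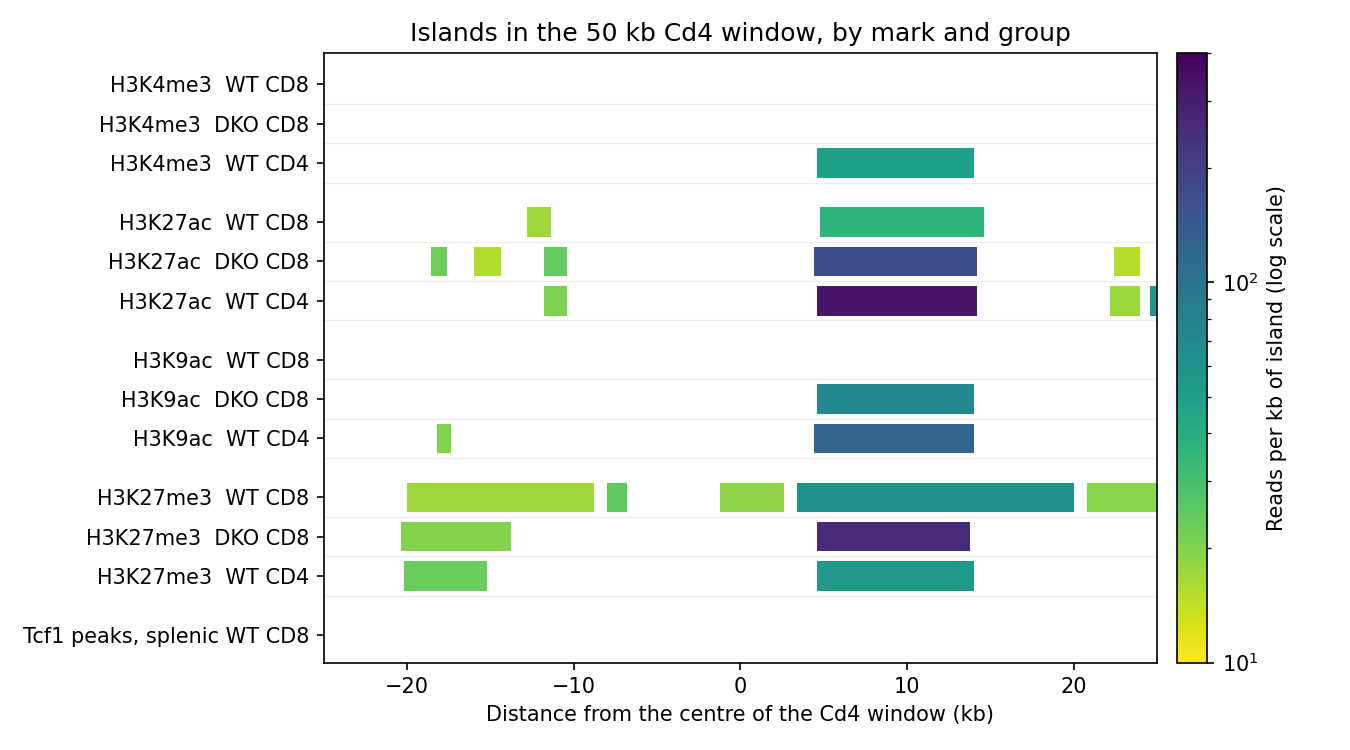
Islands of 4 histone marks in 3 groups and Tcf1 peaks, drawn to scale by distance (kb) from the centre of the Cd4 window and coloured by reads per kb on a log scale. A block starting 3.4 to 4.8 kb right of the centre is present in 9 of the 12 histone lists, H3K27me3 of WT CD8 also covers sequence around it, and no Tcf1 peak lies in the window.

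H3K4me3, the promoter mark, was called at Cd4 in WT CD4 alone. Its single island, chr6:124829601-124839000, held 468 reads (95% Poisson interval 427 to 512), or 49.8 reads per kb. It ranked 25 of 28449 islands by reads and 4115 by read density. WT CD8 and DKO CD8 had no H3K4me3 island in the window. Reads outside islands are not known, so an absent island is not a count of 0. Scaled by the median read ratio of regions called in both lists (the median scale), a signal equal to that of WT CD4 would amount to 290 WT CD8 reads and 304 DKO CD8 reads. The lowest read density in each list, over the width of this island, comes to 88.1 reads for WT CD8 and 83.6 for DKO CD8. That is a minimum over listed islands of any width, not a known calling limit for this width.

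Islands of a pair of lists were merged where they shared at least 1 bp, and each merged region was scored as called in both lists or in 1. At genome scale, 32.7% of merged H3K4me3 regions of the wild types were called in WT CD4 alone, and 47.2% of those of DKO CD8 and WT CD4. Being called in WT CD4 alone is thus common for this mark. A read sum as high as that of the Cd4 region was rare among them. Its 468 reads ranked 6 of 20295 regions of WT CD4 without WT CD8, whose median was 16 reads, and 7 of 20831 without DKO CD8. The width of the island, 9400 bp against a list median of 800 bp, adds to this sum. By density it ranked 4115 of all 28449 islands of the WT CD4 list. Of 52841 windows of 50 kb tiled over the genome, 7.5% had H3K4me3 in WT CD4 only.

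H3K9ac, a mark of active promoters and enhancers, was called at the block in both DKO CD8 and WT CD4 but lacked an island in WT CD8. In DKO CD8 the island chr6:124829601-124839000 held 667 reads (617 to 720), or 71.0 per kb, and it was the only H3K9ac island of the window. In WT CD4 the island chr6:124829401-124839000 held 1180 reads (1114 to 1249), or 122.9 per kb. A second, small WT CD4 island, chr6:124806801-124807600, held 16 reads. The WT CD8 H3K9ac list held 248234 island reads and the DKO CD8 list 281383. For WT CD8 the nearest H3K9ac islands lay 116.8 kb to the left and 244.2 kb to the right of the window.

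The DKO CD8 island ranked 6 of 6516 by reads and 39 by density within its list, and the WT CD4 island 16 of 32651 by reads and 48 by density. Of merged H3K9ac regions, 27.4% were called in DKO CD8 and not in WT CD8, and the Cd4 region was the second of these 3702 by reads, where the median was 29. WT CD4 without WT CD8 accounted for 74.2% of regions, so the absence of a WT CD8 island is in itself no mark of this locus. Among those 28148 regions the Cd4 region ranked 9 by reads. A signal equal to that of DKO CD8 would have given 390 reads in WT CD8 on the median scale, and one equal to WT CD4 511 reads. The lowest read density that the WT CD8 list holds, 8.0 reads per kb, comes to 75.2 reads over the width of the DKO CD8 island. Again this is a minimum over listed islands and not a known calling limit. H3K9ac in DKO CD8 and WT CD4 but not WT CD8 was found in 3.45% of the 50 kb windows.

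Whether H3K9ac at Cd4 was higher in DKO CD8 or in WT CD4 depended on the scale. The window held 667 reads against 1196. Relative to the median ratio of regions called in both lists, the log2 ratio was -0.26 (95% interval -0.40 to -0.12), lower in DKO CD8. Divided by total island reads, of which WT CD4 had far more, it was 1.07, higher in DKO CD8. One further region, the 16-read island, was called in WT CD4 alone, as were 81.2% of H3K9ac regions in this pair.

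H3K27ac, which marks active enhancers and promoters, was called at the block in all 3 groups, with the lowest density in WT CD8 and the highest in WT CD4. The WT CD8 island chr6:124829801-124839600 held 357 reads (321 to 396), or 36.4 per kb. In DKO CD8, chr6:124829401-124839200 held 1688 reads (1608 to 1770), or 172 per kb. In WT CD4, chr6:124829601-124839200 held 3160 reads (3051 to 3272), or 329 per kb. The counting intervals of the 3 libraries do not overlap. In a sorted population, fewer cells with the mark and less of it in each cell cannot be told apart. WT CD4 had no H3K27ac island of higher density among its 24476, and only 5 with more reads. By density the DKO CD8 island ranked 64 of 29636 and the WT CD8 island 8580 of 56985. H3K27ac in all 3 groups was found in 18.7% of the 50 kb windows.

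**Figure D2:**
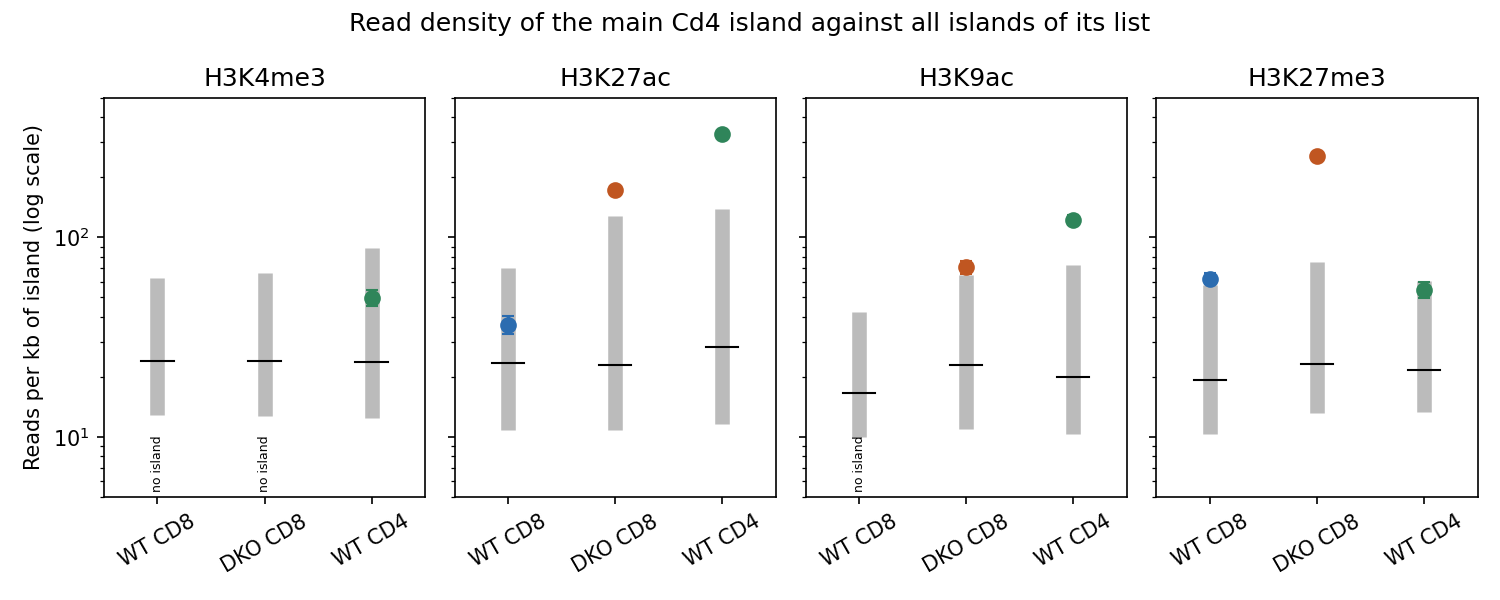
Reads per kb (log axis) of the largest island of the Cd4 window in each list, as points with 95% Poisson intervals that cover counting error only. Grey bars span the 1st to 99th percentile of all islands of the same list, black ticks are their medians, and 6 points lie above the bars: H3K27ac and H3K9ac in DKO CD8 and WT CD4, and H3K27me3 in DKO CD8 and WT CD8.

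The order of the 3 groups for H3K27ac held on each scale tried. Over the whole window, 381 island reads were found for WT CD8, 1794 for DKO CD8 and 3420 for WT CD4. After division by the median ratio of shared regions, which favoured DKO CD8 by 2.72-fold and WT CD4 by 3.68-fold over WT CD8, the log2 ratio to WT CD8 was 0.79 (0.63 to 0.96) for DKO CD8 and 1.28 (1.13 to 1.44) for WT CD4. Both ratios share the WT CD8 library. Divided by total island reads instead, they were 2.31 and 2.88. DKO CD8 against WT CD4 gave -0.54 (-0.62 to -0.45), and -0.58 on total island reads. The size of the difference to WT CD8 thus depends on the scale by more than 2-fold, while its direction does not.

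By region, the block had a log2 ratio of 0.80 (0.63 to 0.97) for DKO CD8 over WT CD8, which lay at the 87.1 percentile of shared H3K27ac regions and below 2-fold. For WT CD4 over WT CD8 it was 1.26 (1.11 to 1.43), at the 97.0 percentile and past 2-fold, as 6.3% of shared regions were. The block in DKO CD8 over WT CD4 had -0.51 (-0.60 to -0.42), at the 19.8 percentile.

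The other H3K27ac islands of the window were weak. A region at chr6:124812201-124814600 was called in all 3 groups, with 24 (WT CD8), 34 (DKO CD8) and 29 (WT CD4) reads. On the median scale it was at least 2-fold lower in WT CD4 than in WT CD8 (log2 ratio -1.61, -2.44 to -0.76), as were 13.5% of shared regions, but with more WT CD4 reads than WT CD8 reads before scaling. Of the 5 merged regions of DKO CD8 and WT CD8, 3 were called in DKO CD8 alone, where the background was 24.7%. These were chr6:124806401-124807400 with 23 reads, chr6:124809001-124810600 with 25 and chr6:124847401-124849000 with 24. Of the 4 merged regions of WT CD4 and WT CD8, 2 were called in WT CD4 alone, against 19.2% of all regions. They were chr6:124847201-124849000 with 32 reads and chr6:124849601-124853000, which crosses the right edge of the window, with 199 reads. DKO CD8 also had an island at that edge, chr6:124850001-124851200, with 82 reads, which begins just outside the window. Against WT CD4, 2 of the 6 merged regions were in DKO CD8 alone, where the background was 33.5%.

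H3K27me3, the Polycomb mark, was called at the block in all 3 groups, with its highest read density in DKO CD8. The DKO CD8 island chr6:124829601-124838800 held 2366 reads (2272 to 2463), or 257 per kb. The WT CD8 island was longer, chr6:124828401-124845000, with 1031 reads (969 to 1096), or 62.1 per kb. WT CD4 had chr6:124829601-124839000 with 513 reads (470 to 559), or 54.6 per kb. Within their lists these islands ranked 46 of 23933, 293 of 34756 and 561 of 34013 by density. H3K27me3 in all 3 groups was found in 15.9% of the 50 kb windows.

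H3K27me3 also covered more of the window in WT CD8. Of the 50 kb, its islands covered 37.0 kb for WT CD8, 15.8 kb for DKO CD8 and 14.4 kb for WT CD4. The extra WT CD8 cover came from the longer main island and from weak islands: chr6:124805001-124816200 with 191 reads, chr6:124817001-124818200 with 30, chr6:124823801-124827600 with 71 and chr6:124845801-124851600 with 114, at 17.1 to 25.0 reads per kb. DKO CD8 and WT CD4 each had 1 other island, at chr6:124804601-124811200 with 130 reads and chr6:124804801-124809800 with 116 reads. Cut to equal covered length per mark, the lists still covered 37.0, 15.8 and 14.4 kb. Of the covered window sequence, 97.5% of that of DKO CD8 lay in WT CD8 islands, which is 41.6% of that of WT CD8.

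At the block, H3K27me3 had more reads per kb of island in DKO CD8 than in WT CD8, while around it WT CD8 covered more sequence. Compared by reads per kb of the largest island, which assumes that reads are spread evenly along it, DKO CD8 over WT CD8 had a log2 ratio of 0.89 (0.78 to 0.99) on the median scale and 1.79 on total island reads. The files do not place reads within an island. If all 1031 reads of the 16.6 kb WT CD8 island lay in the part shared with the DKO CD8 island, the ratio would be lowest. It would then be 0.036 (-0.070 to 0.14) on the median scale and 0.94 on total island reads. Other scales can give lower values. The median ratio of shared regions with at least 100 reads in each library moved the window ratio of this pair from -0.37 to -0.65. That scale was not applied to the block. WT CD4 over WT CD8 had -1.57 (-1.72 to -1.41) per kb on the median scale and -0.83 on total island reads. Before scaling their densities were close, at 54.6 and 62.1 reads per kb. DKO CD8 over WT CD4, whose islands were of like width, had 2.46 (2.32 to 2.60) and 2.63. The median scale of these per kb ratios is that of reads, not of reads per kb. Divided by the median ratio of reads per kb of shared regions instead, DKO CD8 over WT CD8 had 1.24. On that scale WT CD4 over WT CD8 had -0.98 and DKO CD8 over WT CD4 2.27, so the directions were the same.

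Summed over the window, H3K27me3 reads were lowest in WT CD4 on both scales, and the sign between DKO CD8 and WT CD8 changed with the scale. WT CD8 had 1437 island reads, DKO CD8 2496 and WT CD4 629. WT CD4 over WT CD8 had a log2 ratio of -2.57 (-2.71 to -2.44) on the median scale and -1.84 on total island reads. DKO CD8 over WT CD4 had 2.21 (2.09 to 2.34) and 2.38. DKO CD8 over WT CD8 had -0.37 (-0.46 to -0.27) on the median scale and 0.54 on total island reads. These sums join more reads per kb at the block in DKO CD8 with wider cover in WT CD8, so no single direction is given for the window.

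Region by region, 2 of the 5 merged H3K27me3 regions of DKO CD8 and WT CD8 were called in WT CD8 alone, against a background of 50.1%. WT CD4 lacked the same 2 regions, where 39.9% of regions were in WT CD8 alone. Both comparisons use the same WT CD8 library. The shared regions beside the block join islands of unlike width, so their read sums are not compared. At the left one the islands held 19.7 reads per kb over 6.6 kb in DKO CD8, 23.2 over 5.0 kb in WT CD4 and 17.1 over 11.2 kb in WT CD8. The block in DKO CD8 over WT CD4 had a log2 ratio of reads of 2.43 (2.29 to 2.57), at the 99.95 percentile of shared H3K27me3 regions, of which 3.79% exceeded 2-fold in favour of DKO CD8.

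**Figure D3:**
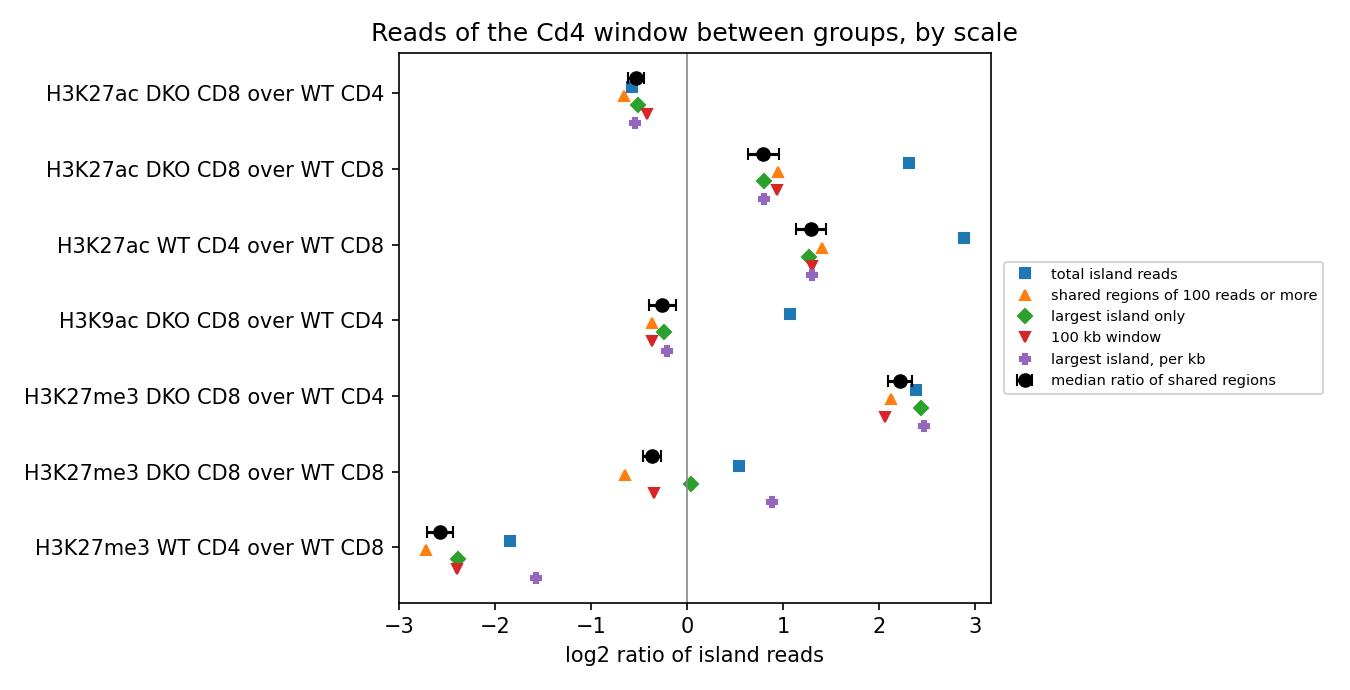
Log2 ratio of island reads of the Cd4 window between groups, with black circles and 95% counting intervals for the median scale and coloured symbols for 5 alternatives, of which the last compares reads per kb of the largest islands. H3K27ac and H3K27me3 of WT CD4 keep their side of 0, and the H3K9ac ratio of DKO CD8 over WT CD4 and the H3K27me3 ratio of DKO CD8 over WT CD8 fall on both sides.

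In both DKO CD8 and WT CD4, acetyl marks and H3K27me3 occupied the same block. The H3K27me3 island of DKO CD8 lay wholly within its H3K27ac island and made up 93.9% of it, and in WT CD4 the share was 97.9%. In WT CD8 the H3K27ac island lay wholly within the H3K27me3 island and made up 59.0% of it. Such matched extents were rare in DKO CD8 and WT CD4. This measure was chosen after the islands at Cd4 had been seen, so the shares below do not set Cd4 apart. Of H3K27me3 islands at least 5 kb wide, 0.055% in DKO CD8 (3 of 5456) and 0.0505% in WT CD4 (4 of 7926) overlapped an H3K27ac island by at least 90% of both. In WT CD8 the share was 7.47%, and the Cd4 island was not among them. Cell populations were profiled, so marks on the same allele and marks on different cells or alleles cannot be told apart.

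Among the H3K27ac islands at least 5 kb wide, 2 of 1228 in DKO CD8 and 2 of 1988 in WT CD4 matched both an H3K9ac and an H3K27me3 island in this way. They were the Cd4 block and, in each group, a stretch at the start of chromosome 11 (chr11:3021001-3100200 in DKO CD8). The latter held 13581 H3K27ac and 26137 H3K27me3 reads in DKO CD8, or 171 and 319 per kb. The Cd4 block of DKO CD8 was close to it, with 172 and 257 per kb. In WT CD4 the chromosome 11 stretch had 180 and 326 per kb, and the Cd4 block 329 and 54.6. The source of the signal at the chromosome 11 stretch was not tested, and the input libraries were not analysed here. In WT CD4 the Cd4 block was the only island of this width matched by all 3 other marks, and in DKO CD8 that was the chromosome 11 stretch.

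A narrow H3K27me3 island just outside the window was also called in DKO CD8 and WT CD4, at chr6:124850401-124850800 in each. It held 72 reads over 400 bp in DKO CD8, or 180 per kb, which ranked 71 of 23933 by density, and 24 reads or 60.0 per kb in WT CD4. In WT CD8 the same sequence lay in the wide, weak island of 19.7 reads per kb that crosses the window edge. Reads of Cd4 sequence carried by a Cre transgene would align to the endogenous gene. Extra copies of Cd4 sequence and a difference in chromatin at Cd4 therefore cannot be told apart from island reads in cells with such a transgene. The input libraries were not analysed here, and the part of copy number in these results was not tested.

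A ratio of marks within the same cells is not altered by a copy number that both libraries share, provided that all copies are marked alike. Whether all copies were marked alike in these cells was not tested. At the Cd4 region the log2 ratio of H3K27ac over H3K27me3 island reads came to -1.53 (-1.71 to -1.36) for WT CD8, -0.49 (-0.58 to -0.40) for DKO CD8 and 2.62 (2.49 to 2.76) for WT CD4. The WT CD8 value sets a 9.8 kb H3K27ac island against the wider H3K27me3 one. Per kb of island, the log2 ratios were -0.77 (-0.95 to -0.59), -0.58 (-0.67 to -0.49) and 2.59 (2.46 to 2.73). WT CD4 thus stood apart from both CD8 groups in either unit. The unscaled per kb intervals of WT CD8 and DKO CD8 overlapped. Unscaled ratios also carry the depth of the 2 libraries, so this overlap does not show a like balance of marks. Set against the median of all regions with both marks in each group, the per kb values were -0.89 (WT CD8), -0.14 (DKO CD8) and 3.01 (WT CD4). Against the median of regions with at least 100 reads of each mark they were -0.87, -0.45 and 2.58.

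The median over all regions with both marks was -0.46 for WT CD8 (16976 regions), -1.47 for DKO CD8 (3678) and -1.40 for WT CD4 (3348) by reads, and 0.12, -0.43 and -0.42 per kb. By reads, Cd4 lay at the 11.7, 71.9 and 98.6 percentile of these regions, and per kb at the 2.62, 43.5 and 99.9 percentile. Over regions with at least 100 reads of each mark it lay at the 0.55, 55.1 and 99.6 percentile by reads, and at the 0.43, 33.7 and 100 percentile per kb. In DKO CD8 the side of the median on which Cd4 fell therefore depended on the unit. In WT CD8 it was below the median and in WT CD4 above it in either unit.

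**Figure D4:**
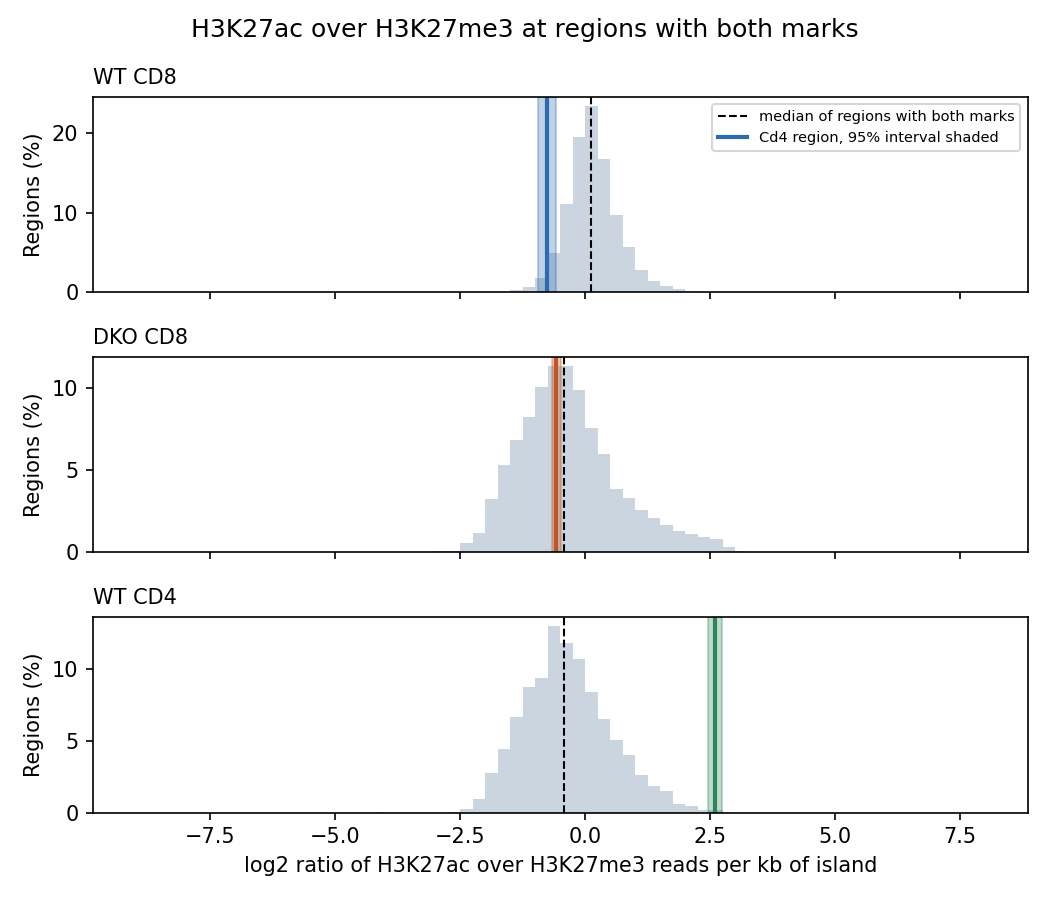
Share of regions (%) by log2 ratio of H3K27ac over H3K27me3 reads per kb of island, for regions with both marks in each group, with the dashed line at the median and the coloured line at the Cd4 region. Cd4 lies left of the median in WT CD8 (-0.77), near it in DKO CD8 (-0.58) and in the right tail in WT CD4 (2.59).

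H3K9ac gave a further view of the same balance. Its log2 ratio over H3K27me3 at the Cd4 region was -1.83 in DKO CD8, below the median of -0.52 over 852 regions with both marks (18.0 percentile), and 1.20 in WT CD4, above the median of -1.80 over 5243 regions (99.6 percentile). Per kb the values were -1.86 (2.0 percentile) and 1.17 (98.5 percentile).

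The presence and absence of islands at the Cd4 window over all 12 lists was also looked for elsewhere. This pattern was read from the Cd4 window itself, and a pattern of 12 calls can be rare for any window. How often the patterns of other windows recur was not counted, so the share below does not set Cd4 apart. Of the 50 kb windows, 0.0189% (10 of 52841, Cd4 included) had the same pattern, with H3K4me3 in WT CD4 only, H3K9ac in DKO CD8 and WT CD4, and H3K27ac and H3K27me3 in all groups. By reads, the Cd4 window ranked 5 of all windows for H3K27ac in WT CD4, 12 in DKO CD8 and 128 in WT CD8. For H3K9ac it ranked 9 in DKO CD8 and 18 in WT CD4. For H3K27me3 its ranks were 20 (WT CD8), 28 (DKO CD8) and 1616 (WT CD4). These ranks come from lists of different lengths and are read only within each list.

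Island extents in the window were closest between DKO CD8 and WT CD4 for H3K27ac, H3K9ac and H3K27me3. For H3K9ac this follows from the lack of a WT CD8 island. Of the window length covered by either list, the pair shared 78.75% for H3K27ac and 88.75% for H3K27me3. With WT CD8, DKO CD8 shared 58.3% and 41.2% in the window, and WT CD4 67.1% and 38.2%. For H3K4me3, DKO CD8 and WT CD4 shared 0 of 9400 bp, since neither CD8 group had an island. For H3K27ac they shared 12600 bp, which is 81.8% of the DKO CD8 and 95.5% of the WT CD4 cover. For H3K9ac they shared 9400 bp, or 100% and 90.4%. For H3K27me3 they shared 14200 bp, or 89.9% and 98.6%. The same lists shared 58.0% and 53.5% of their length genome-wide for H3K27ac, 54.1% and 13.7% for H3K9ac, and 70.4% and 47.6% for H3K27me3. Genome-wide this pair was also the closest for H3K27ac and H3K27me3, so that order is not particular to Cd4. Of the length covered by either list, it shared 38.5% for H3K27ac and 39.7% for H3K27me3. With WT CD8, DKO CD8 shared 12.9% and 22.9%, and WT CD4 13.6% and 21.1%. For H3K9ac, DKO CD8 shared 12.3% with WT CD4 and 15.9% with WT CD8.

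No Tcf1 peak lay in the Cd4 window. The list of 7807 peaks from splenic CD8 cells holds scores of 50 and above, so weaker binding would not be listed, and it does not describe thymocytes. The nearest peaks were chr6:124779889-124780323, 19.7 kb to the left (the authors' score 57.59, rank 6175), and chr6:124881264-124881550, 31.3 kb to the right (score 61.32, rank 5676). Both overlapped H3K27ac islands of all 3 groups and no H3K27me3 island. The left peak lay in H3K27ac islands of 23 (WT CD8), 62 (DKO CD8) and 99 (WT CD4) reads.

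Peaks were absent from most windows of this size, since 10.7% of the 50 kb windows held one. They were frequent in H3K27ac islands as wide as the Cd4 block: 107 of 144 such islands in DKO CD8 (74.3%) and 262 of 360 in WT CD4 (72.8%) held a peak, against 11 of 43 in WT CD8 (25.6%). Islands with at least as many H3K27ac reads as Cd4, Cd4 included, were also counted. A peak was present in 5 of 10 in DKO CD8, 4 of 6 in WT CD4 and 13 of 47 in WT CD8 (27.7%). The Cd4 block was in each of these groups an island without a peak.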

How the data were processed

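The submitters' processing notes list the mm9 build and, without saying what each was used for, Bowtie2 2.2.5 with SICER 1.1, MACS 1.4.2 and FastQC. The deposited island lists give a whole, not normalized read count per island, on a grid of 200 bp, for 1 library each. Tcf1 peaks carry the authors' score, which served only for ranks. The total read number of a library is not stated.

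Islands of 2 libraries sharing at least 1 bp were merged. Read ratios were divided by the median ratio of merged regions called in both, with exact Clopper-Pearson intervals at 95% conditional on the sum of reads, and single counts have exact Poisson intervals. These cover counting error only. Because islands differ in width, largest islands were also compared by reads per kb, which assumes even spread along an island. Those ratios were divided by the median ratio of reads, and for H3K27me3 also by that of reads per kb. Regions at least 2-fold from the median were counted. No ratio is given where a list has no island. Windows of 50 kb ran up to the last island of each chromosome. Every island and peak of the window is named. The members and measures were chosen with earlier results of these data known, and the matched extents, the block and the ratio between marks were chosen after the islands had been seen.

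Scripts ran in Python 3.11.15 (SciPy 1.17.1, pandas 2.3.3, numpy 2.4.6; figures with matplotlib 3.10.9). Merging gave the same regions as bedtools 2.31.1, and ratios were tested on simulated data. A planned search of the Cd4 promoter and checks of marker genes were not run, since neither a Cd4 promoter sequence nor an mm9 annotation was used here. Input and Tcf1-deficient libraries were not analysed here. Alternatives covered the scale, the window, weak islands and equal covered length.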

Additional observations from a re-analysis of the deposited data

How the results depend on the processing

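Values are log2 ratios of window reads unless stated. Divided by total island reads, H3K27ac was 2.31 for DKO CD8 over WT CD8 and 2.88 for WT CD4 over WT CD8, H3K27me3 was -1.84 for WT CD4 over WT CD8 and 2.38 for DKO CD8 over WT CD4, and 2 ratios turned: H3K27me3 of DKO CD8 over WT CD8 (0.54) and H3K9ac of DKO CD8 over WT CD4 (1.07). Without the 10 islands with most reads in these totals, the same 6 were 2.31, 2.88, -1.91, 2.40, 0.49 and 1.13. With only islands above the median reads of their list, H3K27me3 was -0.58 for DKO CD8 over WT CD8 and -2.72 for WT CD4 over WT CD8, and H3K27ac of DKO CD8 covered 9800 bp in place of 15400. In a 100 kb window, H3K27me3 was -2.39 for WT CD4 over WT CD8 and 2.06 for DKO CD8 over WT CD4, H3K27ac was -0.42 for DKO CD8 over WT CD4, and 2 Tcf1 peaks were included. Both lay left of the 50 kb window. Alternatives added after seeing the data were the reads of the largest island alone, whose width differed between groups (H3K27me3 0.036 for DKO CD8 over WT CD8, which turned, -2.39 for WT CD4 over WT CD8 and 2.43 for DKO CD8 over WT CD4), its reads per kb (0.89, which turned, -1.57 and 2.46) and the median of shared regions with at least 100 reads in each library (H3K27me3 -0.65 for DKO CD8 over WT CD8 and -2.72 for WT CD4 over WT CD8, H3K27ac -0.66 for DKO CD8 over WT CD4). The cause of these shifts was not tested. No paired analysis was possible because each group had 1 library per mark and the result comes from no test. Reads outside islands are unknown, so depth limits what an absent island shows.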
